A study of Sus scrofa with 9 samples.

Results

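Long non-coding RNAs (lncRNAs) are long transcripts with no known protein product, and 71 of their rows were well expressed in pig fistula veins. They were the rows of the deposited gene table that carried the biotype lncRNA and reached a mean of at least 5 RPKM over the 9 libraries, 71 of 30477 rows in all; the other lncRNA rows numbered 6487. RPKM is reads per kilobase of gene, scaled to the reads of the library, so it compares levels between genes per length. The level alone chose the rows, so the levels are given as a description. At the edge, ENSSSCG00000041401 stood just inside with a deposited mean of 5.05 RPKM and ENSSSCG00000047910 just outside with 4.93 RPKM.

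The samples were outflow veins of arteriovenous fistulas, the surgical connections through which dialysis patients are needled, here between the carotid artery and jugular vein of pigs. The 6 MSC veins had received adipose-derived mesenchymal stem cells in Ringer lactate on their outer wall right after surgery, and the 3 control veins were untreated. Both groups carried a chronic kidney disease model, induced 28 days before the fistula, and were harvested 28 days after it. The sources used here give no strain, age, cell dose or donor of the cells, and the tags in the names of MSC 1 (Allo, M) and control 2 (NT, F) are not explained in the labels.

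Some lncRNAs stay in the nucleus, where they hold together nuclear bodies or silence genes in their neighbourhood. Others are mainly carriers: small nucleolar RNAs (snoRNAs, which guide the chemical modification of ribosomal RNA) or microRNAs are cut out of their introns or exons while the spliced host RNA is often short-lived. Because a lncRNA often shares a promoter or a span with a coding gene, its genomic surroundings are part of its description.

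The libraries held 16939157 to 47417606 reads on listed genes, and 1 read was worth 0.0105 to 0.0295 RPKM in a gene of 2 kilobases. The share of reads on small non-coding RNA was 53.3% in MSC 6 and 6.75% to 16.1% in the other MSC libraries, against 40.4% in control 2 and 7.94% and 16.4% in the other controls. MSC 2, the shallowest library, had reads on 97.0% of the other lncRNA rows, against 56.6% to 81.2% in the rest. MSC 5 and MSC 6 held the most contractile smooth muscle RNA, with 8287 and 8533 RPKM summed over 14 markers, against 319 to 2427 in the other MSC libraries and 665 to 769 in the controls. MSC 5 also had the highest fibroblast sum (58070 RPKM, against 11920 to 26640 in the other libraries). It was highest in endothelial (143 RPKM, against 37.5 to 106) and nerve markers (83.8 RPKM, against 4.07 to 37.1). MSC 3 was highest in macrophage markers (1370 RPKM, against 269 to 680). MSC 6 also stood apart in skeletal muscle markers (182 RPKM summed, against 0.228 to 3.82 in the other MSC libraries and 0.283 to 0.512 in the controls). Its sum over B and plasma cell markers was 229 RPKM, against 19.5 to 57.1 in the other MSC libraries and 33.7 to 85.2 in the controls. Of these 10 markers, 4 were lower in every MSC library, MSC 6 included, than in any control, so the sum does not speak for each marker. The erythroid sum of MSC 6 was 542 RPKM, against 9.72 to 428.5 in the other MSC libraries and 4.78 to 38.6 in the controls. The part of such cells in rows high in MSC 6 was not tested. Lane 7 held MSC 2, MSC 5 and MSC 6 and no control. The labels do not say that each library was a separate animal, so p-values reflect the variation among these libraries only, part of which may be technical. In bulk tissue, fewer cells of a type and less RNA per cell cannot be told apart.

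The biotype was checked against the pig RefSeq annotation, whose coordinates matched those of the table (14206 of 14223 protein-coding genes with the same symbol overlapped). Of the 71 rows, 42 lay at least in part within the span of a RefSeq protein-coding gene, 18 overlapped a RefSeq lncRNA gene and no coding one, and 11 overlapped neither. Wherever a row is said to lie within a RefSeq span, an overlap at least in part is meant. None of the rows had a symbol in the table, and the gene name table gave a symbol to 8. Those were GNG12, HDLBP, PHF20, TCEAL9, CYS1, TANK, RHOBTB2 and C18orf32, symbols of coding genes in human. RefSeq lists the C18orf32 row alone among them as lncRNA, so for the other 7 the lncRNA label of the table goes against RefSeq. Strand is not given in the table, so reads of a row and of a gene around it could not be separated.

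The well expressed rows sat closer to other genes than the rest of the lncRNA rows did. The median gap to the nearest listed protein-coding gene was 9538 bases, against 28862 bases for the other 6487 lncRNA rows. A gap of at most 5000 bases was found for 29 rows (40.8%), against 1491 (23.0%) of the others. A snoRNA, small Cajal body RNA or microRNA lay inside 12 rows (16.9%), against 56 (0.863%) of the others. Median transcript length hardly differed, at 2958 bases against 2884 bases. These are descriptions of rows chosen by level, given with no test. The 71 rows fell into 59 loci when rows at most 100000 bases apart were joined, and 9 loci held more than 1 row, 21 rows together.

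On deposited means, 56 rows reached 5 RPKM in both groups, 6 in the MSC mean only and 9 in the control mean only. The rows were chosen by the mean of these same libraries, 6 MSC and 3 control. These counts therefore largely follow from the rule and do not show that levels were alike in the groups. For the comparisons, RPKM values were scaled between libraries by the trimmed mean of M-values, and all levels given from here on are such scaled RPKM unless stated. Fold changes are on the log2(scaled RPKM + 1) scale, MSC over control, with their SE, from limma fitted to all 17884 genes past the low-value filter. All 71 rows passed that filter.

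None of the 71 rows passed an adjusted p of 0.05 by limma between MSC and control veins, and neither did any other gene tested (0 of 17884, 0%; smallest adjusted p 0.315). Limma-voom on reads recovered from the RPKM values also called 0 genes. At an unadjusted p below 0.05 there were 8 of the 71 rows, 5 lower and 3 higher in MSC veins, against 719 genes overall (4.02%; 2.11% lower and 1.91% higher). Fold changes were negative in 47 rows and positive in 24, with a median of -0.23, against a median of 0.04 over all genes tested and 0.01 over the 2160 other lncRNA rows tested. On lanes 5 and 6, which hold both groups, the median over the rows was -0.04. Without MSC 5 and MSC 6, it was -0.06. In the plot of fold change against level, most rows lie near 0 and a pair on the X chromosome lies far below it.

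**Figure D1:**
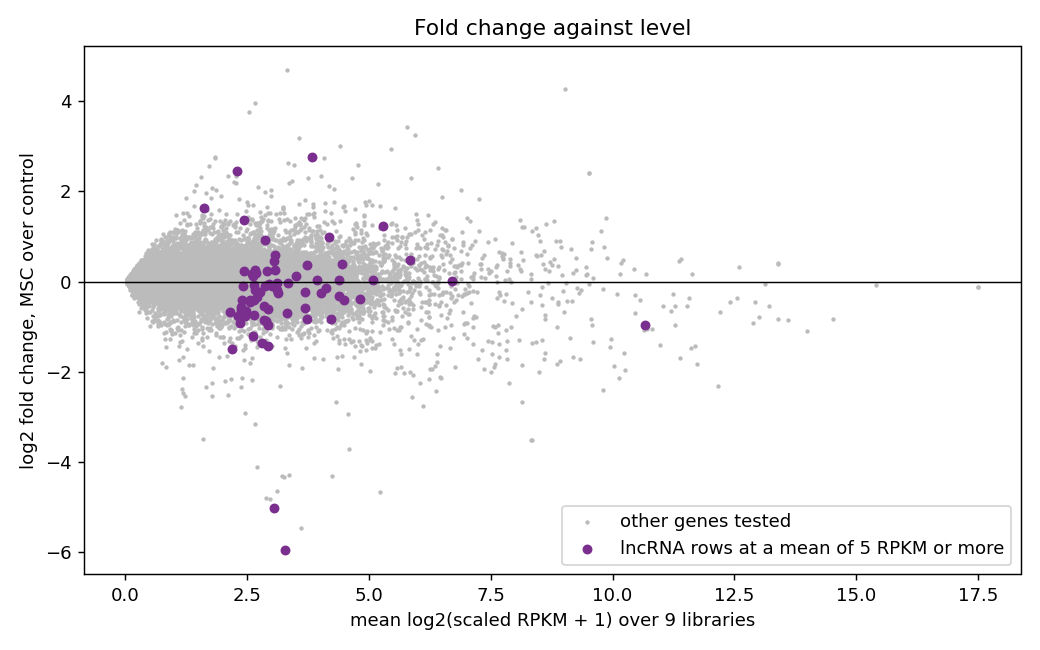
Log2 fold change of MSC over control veins (vertical axis) against the mean of log2(scaled RPKM + 1) over the 9 libraries (horizontal axis). Each point is a gene, with the 71 lncRNA rows in purple and the other genes tested in grey; a pair of X-linked rows stands at -5.96 and -5.03, and the most abundant row stands at -0.97.

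The mean over the 9 libraries was highest for ENSSSCG00000048856 (chromosome 2, 6752140 to 6757157, RefSeq LOC102163816), which was the highest row in every library but MSC 6. ENSSSCG00000044913 (chromosome 2, 6797358 to 6803782, RefSeq LOC100513133), the next row by deposited mean, lies 19184 bases from FRMD8. In human, the neighbourhood of FRMD8 holds the nuclear lncRNA genes NEAT1 and MALAT1, which are known for paraspeckles and nuclear speckles; neither pig row carries a name in the files. ENSSSCG00000048856 measured 2063, 2248, 2221, 2781, 371 and 457 RPKM in MSC 1 to 6, against 2931, 1967 and 2876 RPKM in control 1 to 3.

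Its log2 fold change was -0.97 ± 0.94 (SE; limma adjusted p = 0.920). The low values were those of MSC 5 and MSC 6, and the other MSC libraries overlapped the controls. Without these libraries the log2 fold change was -0.14. The row took 32.4% of the reads on the 71 rows in MSC 5 and 20.3% in MSC 6, against 70.6% to 78.7% in the other 7 libraries. ENSSSCG00000044913 measured 148, 103, 71.3, 118, 128 and 75.1 RPKM in MSC 1 to 6, against 172, 58.4 and 105 RPKM in control 1 to 3. Its values overlapped throughout, MSC 5 was not low, and the log2 fold change was 0.02 ± 0.43 (SE; limma adjusted p = 0.990).

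Proteins of paraspeckles and nuclear speckles were followed as a list of 32 genes, all of them tested. None passed the limma test or had an unadjusted p below 0.05; 22 had a negative and 10 a positive fold change, with a median of -0.16. CPSF6, a cleavage factor subunit found in paraspeckles, averaged 17.7 ± 16.8 RPKM in MSC veins (SD, n = 6) and 32.9 ± 1.81 RPKM in control veins (SD, n = 3). MSC 3 stood at 49.9 RPKM, above every control, and the other MSC libraries at 6.09 to 22.1 RPKM. The groups therefore overlapped (-1.24 ± 0.58 (SE), limma adjusted p = 0.920). Of 25 genes of RNA decay, the pathway that removes many spliced host RNAs, 24 were tested and none passed or had an unadjusted p below 0.05; 13 were negative, with a median of -0.01. SMG5, a factor of nonsense-mediated decay with the highest fold change on this list, averaged 8.30 ± 5.39 RPKM in MSC veins (SD, n = 6) and 4.22 ± 0.386 RPKM in control veins (SD, n = 3). Its MSC mean was carried by 18.4 RPKM in MSC 5 and 10.4 RPKM in MSC 6, the other MSC libraries being at 3.95 to 6.02 RPKM.

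**Figure D2:**
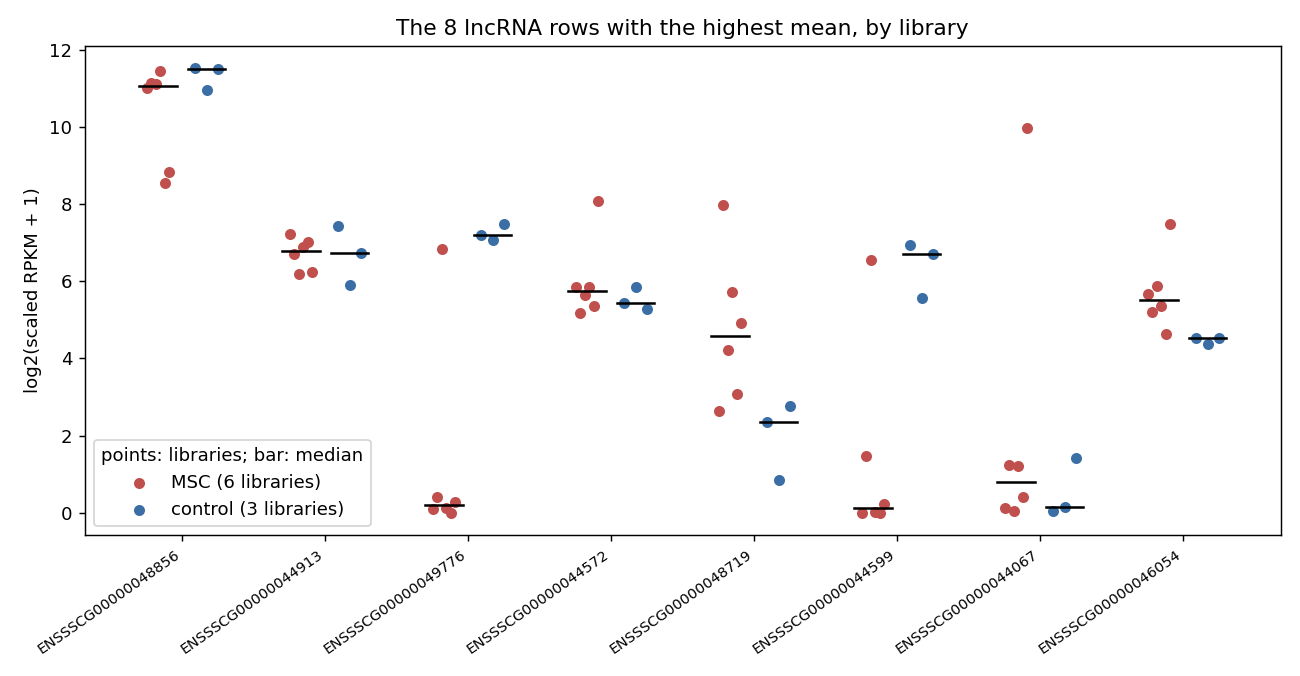
The 8 lncRNA rows with the highest mean, by library, as log2(scaled RPKM + 1) on the vertical axis; red points are the 6 MSC libraries, blue points the 3 control libraries, and bars are group medians. The top row holds 371 to 2781 RPKM in MSC and 1967 to 2931 RPKM in control libraries, and ENSSSCG00000044067 is high in 1 MSC library only.

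The largest differences were in a pair of X-linked rows that were on in every control and in a single MSC library. ENSSSCG00000049776 (chromosome X, 59288879 to 59293232) and ENSSSCG00000044599 (chromosome X, 59283918 to 59286152) lie 58096 and 53135 bases from CHIC1 and overlap no RefSeq gene. In human, the neighbourhood of CHIC1 holds the X inactivation centre, whose lncRNA XIST is made from the inactive X of female cells; no row of the table carries that symbol, and the pair is unnamed.

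ENSSSCG00000049776 measured 0.0697, 0.342, 113, 0.0895, 0 and 0.221 RPKM in MSC 1 to 6, against 145, 134 and 178 RPKM in control 1 to 3. That is 2, 5, 2537, 3, 0 and 2 reads in the MSC libraries, against 5807, 2374 and 5872 reads in the controls. MSC 3 stood near the controls, the other MSC libraries were at or near 0, and the groups did not overlap. ENSSSCG00000044599 measured 0, 1.77, 92.4, 0.0226, 0 and 0.168 RPKM in MSC 1 to 6, against 122, 46.3 and 104 RPKM in control 1 to 3. Here MSC 3 lay above control 2, so the groups overlapped.

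Fold changes of the pair were -5.96 ± 1.35 and -5.03 ± 1.31 (SE), with limma adjusted p-values of 0.454 and 0.554. Without MSC 3 they were -7.04 and -6.04, with limma adjusted p-values of 2.97e-06 and 0.00175, so that 1 library decided the call of both rows. CHIC1 itself had a fold change of -0.39 ± 0.35 (SE).

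Y-linked genes showed the reverse pattern over the same libraries. EIF1AY, a translation factor gene on the Y chromosome, measured 11.4, 5.53, 0, 9.93, 0.656 and 9.65 RPKM in MSC 1 to 6 and 0 RPKM in each control. KDM5D, a Y-linked histone demethylase gene, had 2439, 1224, 0, 4745, 1080 and 336 reads in MSC 1 to 6, against 1, 0 and 0 reads in control 1 to 3. The 4 libraries with high levels of the X-linked pair therefore held 1 read on these Y-linked genes in all. All MSC libraries but MSC 3 held Y-linked reads and no control held more than 1, so in those libraries treatment and the presence of Y-linked reads cannot be told apart.

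**Figure D3:**
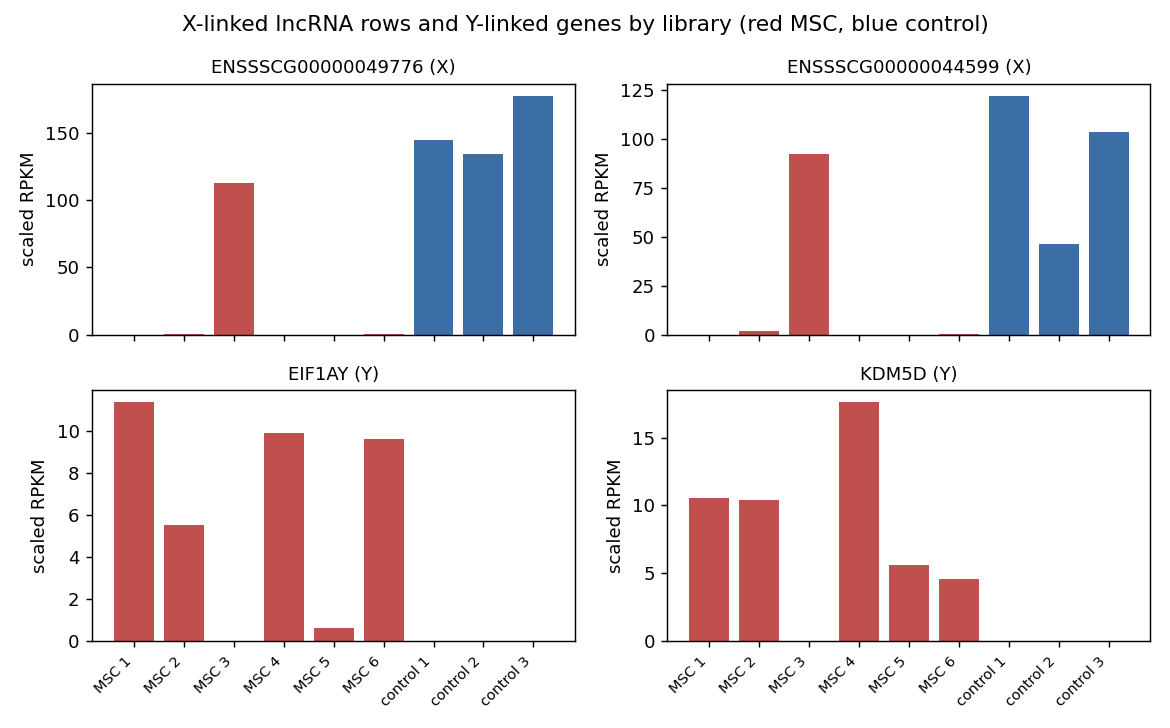
Scaled RPKM by library of the X-linked lncRNA rows ENSSSCG00000049776 and ENSSSCG00000044599 (top) and of the Y-linked genes EIF1AY and KDM5D (bottom); red bars are MSC 1 to 6 and blue bars control 1 to 3. MSC 3 stands at 113 and 92.4 RPKM for the X-linked rows and at 0 for both Y-linked genes.

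A further X-linked locus lies near ZCCHC13. ENSSSCG00000043604 (chromosome X, 59541361 to 59608655, RefSeq LOC102165633) has ssc-mir-421, MIR374B, MIR545 and ssc-mir-374a inside it, a microRNA group that in human is carried by the lncRNA gene FTX. It measured 5.95, 4.94, 7.10, 7.17, 1.58 and 2.47 RPKM in MSC 1 to 6, against 7.39, 4.72 and 6.69 RPKM in control 1 to 3. The groups overlapped, MSC 5 and MSC 6 were lowest, and the fold change was -0.41 ± 0.41 (SE; limma adjusted p = 0.920). MSC 3 did not stand apart from the other MSC libraries in this row.

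The other microRNA-holding rows had higher medians in MSC veins with overlapping groups. ENSSSCG00000050772 (chromosome 9, 49098669 to 49373356) holds ssc-mir-125b-1, ssc-let-7a-1 and ssc-mir-100, microRNAs of a conserved cluster. Its levels were 10.1, 10.4, 6.72, 13.6, 5.48 and 5.64 RPKM in MSC 1 to 6, against 8.54, 3.67 and 5.68 RPKM in control 1 to 3, a fold change of 0.47 ± 0.35 (SE; limma adjusted p = 0.920). ENSSSCG00000041959 (chromosome 6, 147328418 to 147336903) holds ssc-mir-101-2 and lies within the RefSeq span of JAK1, a cytokine receptor kinase. It measured 3.72 to 7.32 RPKM in MSC veins, with a median of 6.09, against 6.46, 3.55 and 4.15 RPKM in control 1 to 3 (0.26 ± 0.28 (SE), limma adjusted p = 0.920). The listed JAK1 row (147429106 to 147567179) does not overlap it. That JAK1 row stood at 45.3 ± 4.40 RPKM in MSC veins (SD, n = 6) and 47.3 ± 1.12 RPKM in control veins (SD, n = 3). Poly(A) or size selection of the RNA is not detailed in the labels, so these values are of reads over the microRNA genes and their hosts, not of mature microRNA.

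Rows that hold a snoRNA or small Cajal body RNA numbered 9, with 4 positive and 5 negative fold changes and a median of -0.14; none had an unadjusted p below 0.05. Of the 9, 7 were highest in MSC 6, the library richest in small non-coding RNA. ENSSSCG00000045735 (chromosome 18, 50450274 to 50463847, holding SNORA9) measured 2.79 to 10.4 RPKM in MSC 1 to 5 and 117 RPKM in MSC 6, against 6.89, 61.1 and 14.2 RPKM in control 1 to 3. SNORA9 itself measured 353, 58.2, 272, 201, 39.2 and 3885 RPKM in MSC 1 to 6, against 211, 2242 and 489 RPKM in control 1 to 3. Row and snoRNA were both highest in MSC 6 and next highest in control 2.

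ENSSSCG00000045086 (chromosome 17, 41490142 to 41500069, holding SNORA71) had the same top libraries, with 86.3 RPKM in MSC 6 and 54.5 RPKM in control 2, against 8.76 to 17.8 in the other MSC libraries and 6.34 and 14.6 RPKM in the other controls. The more abundant SNORA71 gene inside it measured 5192 RPKM in MSC 6 and 3288 RPKM in control 2, against 329 to 893 RPKM in the other 7 libraries. Other rows did not follow their snoRNA in control 2. ENSSSCG00000043175, which begins 222 bases from SLC3A2 and holds SNORD22 and SNORD26 to SNORD31, measured 33.9 RPKM in MSC 6 but 9.45 RPKM in control 2, while its abundant SNORD22 gene measured 43770 and 30730 RPKM there. ENSSSCG00000041401, which holds a pair of SNORA73 genes, was at 10.3 RPKM in MSC 6 and 4.60 RPKM in control 2. Whether reads of the small RNAs were also counted in the rows around them was not tested.

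**Figure D4:**
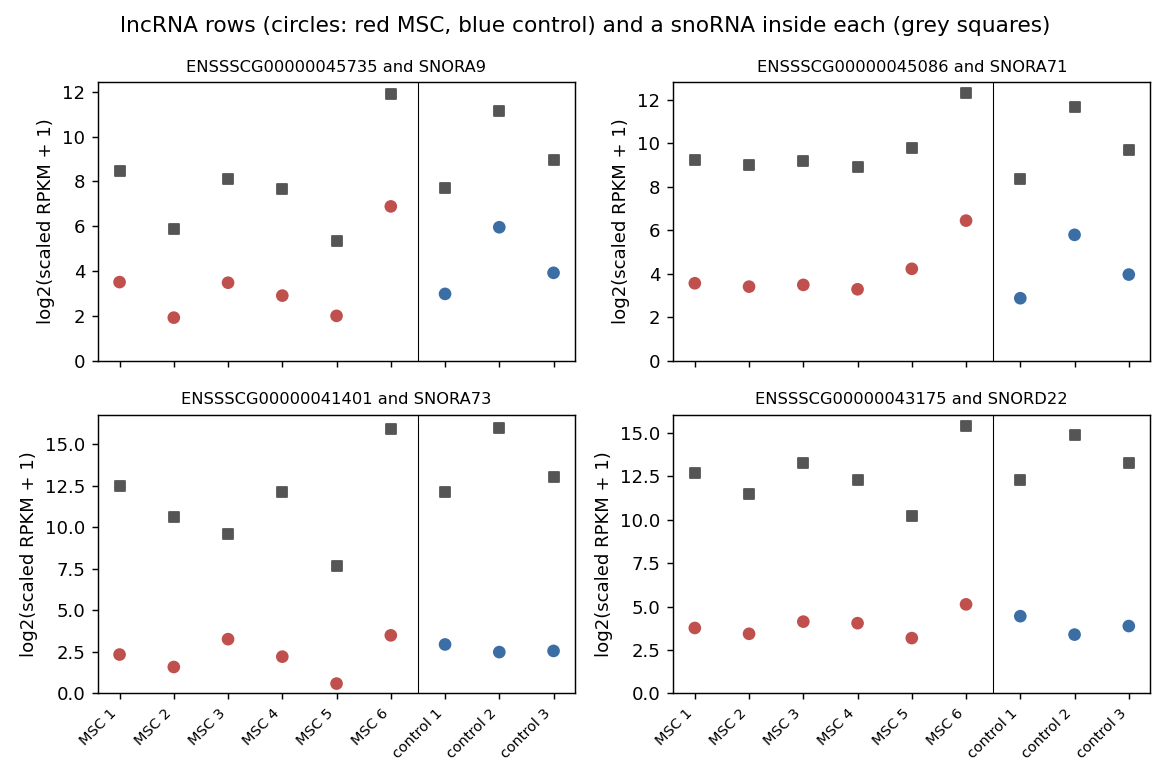
LncRNA rows (circles; red MSC 1 to 6, blue control 1 to 3) and a snoRNA gene inside each (grey squares), as log2(scaled RPKM + 1). The rows with SNORA9 and SNORA71 are highest in MSC 6 and control 2, as are their snoRNAs, whereas the rows with SNORA73 and SNORD22 are highest in MSC 6 only.

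ENSSSCG00000044572 (chromosome 7, 23932542 to 23935874), the most abundant snoRNA-holding row, carries SNORD48 and SNORD52 and lies 4346 bases from the heat shock gene HSP70.2. It measured 57.1, 35.1, 49.0, 56.6, 40.3 and 267 RPKM in MSC 1 to 6, against 42.0, 56.4 and 37.8 RPKM in control 1 to 3. MSC 6 alone stood apart, and the fold change was 0.48 ± 0.58 (SE; limma adjusted p = 0.920). SNORD48 and SNORD52 were at 18.3 and 11.14 RPKM in that library, well below the row that holds them.

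Within the span of NAV3, a neuron navigator gene, a pair of rows was lower in every MSC vein than in any control, without passing the test. ENSSSCG00000049354 (chromosome 5, 103793067 to 103798135) measured 3.59, 2.97, 2.48, 3.87, 1.57 and 0.402 RPKM in MSC 1 to 6, against 7.23, 6.40 and 11.2 RPKM in control 1 to 3. ENSSSCG00000045127 (chromosome 5, 103493887 to 103496802) measured 4.25, 3.15, 3.21, 4.89, 6.07 and 1.72 RPKM in MSC 1 to 6, against 6.76, 8.26 and 16.3 RPKM in control 1 to 3. Their fold changes were -1.49 ± 0.41 and -1.20 ± 0.37 (SE), with limma adjusted p-values of 0.572 and 0.721. The listed NAV3 row, 125866 bases from the second of them, measured 9.76, 8.04, 6.62, 10.8, 18.2 and 7.33 RPKM in MSC 1 to 6, against 11.3, 16.1 and 18.7 RPKM in control 1 to 3. It overlapped between the groups through MSC 5, with a fold change of -0.60 ± 0.33 (SE).

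Of all 71 rows, 7 did not overlap between the groups, 5 with every MSC library below every control (1.95% of all genes tested) and 2 with every MSC library above (2% of all genes tested; 3.95% for both directions). Besides the NAV3 pair and the X-linked row, the lower ones were ENSSSCG00000046277 and ENSSSCG00000045213 on chromosome 11. The count rested on the scaling: with deposited RPKM it was 1 (1.71% of all genes), and with reads outside small non-coding RNA as the base it was 3 (3.48% of all genes). Without MSC 3 it was 15 (8.83% of all genes) and without control 2 it was 14 (5.88% of all genes).

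The chromosome 11 rows belong to a locus of 5 well expressed rows between 17690380 and 17778959, beside KCNRG, a regulator of potassium channels. In human, the lncRNA genes DLEU1 and DLEU2 lie in this neighbourhood; the pig rows are unnamed. ENSSSCG00000045213, the row nearest to KCNRG, measured 9.09, 5.27, 8.84, 7.50, 0.276 and 1.62 RPKM in MSC 1 to 6, against 16.2, 9.47 and 11.5 RPKM in control 1 to 3. ENSSSCG00000046277 measured 5.05, 4.35, 5.51, 5.34, 1.01 and 0.907 RPKM in MSC 1 to 6, against 9.49, 5.81 and 5.90 RPKM in control 1 to 3. In both rows MSC 5 and MSC 6 lay far below the other MSC libraries, which were themselves under the lowest control.

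The fold changes of these 2 rows were -1.36 ± 0.64 and -0.93 ± 0.48 (SE), each with a limma adjusted p of 0.920. Over the 5 rows, which overlap one another or lie side by side and are not independent, the median was -0.87. Without MSC 5 and MSC 6 it was -0.35, and on lanes 5 and 6 it was -0.32. KCNRG was itself at 0.0444 to 0.688 RPKM in MSC veins and 0.0642 to 0.109 RPKM in control veins, far under the rows beside it. The 0.688 RPKM was that of MSC 2, and the other MSC libraries were at 0.0444 to 0.0781 RPKM.

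The rows above every control in MSC veins were both on chromosome 9. ENSSSCG00000046054 (chromosome 9, 73721057 to 73726287) lies within the RefSeq span of GNG11, a G protein gamma subunit gene. It measured 50.3, 35.9, 57.4, 40.2, 23.9 and 177 RPKM in MSC 1 to 6, against 22.2, 19.8 and 22.0 RPKM in control 1 to 3, a fold change of 1.23 ± 0.53 (SE; limma adjusted p = 0.920). MSC 6 was far above the rest, and MSC 5 stood just over the highest control. The row listed as GNG11 (73721455 to 73726287) also carried the biotype lncRNA and lay wholly inside ENSSSCG00000046054. It held 0.632 RPKM in MSC 2, 0 to 0.0273 RPKM in the other MSC libraries and 0 to 0.0372 RPKM in the controls. How reads were shared out between these overlapping rows was not tested, so its low values do not give the level of GNG11.

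ENSSSCG00000044265 (chromosome 9, 42051784 to 42070611) lies 24503 bases from REXO2, an exonuclease gene for short RNAs. It measured 6.74, 2.79, 3.99, 7.70, 2.98 and 32.5 RPKM in MSC 1 to 6, against 2.16, 1.71 and 1.74 RPKM in control 1 to 3. MSC 6 was again highest, and the fold change was 1.38 ± 0.61 (SE; limma adjusted p = 0.920), beside 0.59 ± 0.37 (SE) for REXO2.

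Among the 8 rows with the smallest p, the remaining ones were ENSSSCG00000048719 and ENSSSCG00000044736. ENSSSCG00000048719 (chromosome 4, 53952716 to 53953839), a row with its nearest coding gene 301730 bases away, measured 5.22, 248, 17.6, 51.5, 7.48 and 29.4 RPKM in MSC 1 to 6, against 4.16, 0.815 and 5.81 RPKM in control 1 to 3. MSC 1 lay under control 3, so the groups overlapped (2.76 ± 1.02 (SE), limma adjusted p = 0.920). ENSSSCG00000044736 (chromosome 16, 27719035 to 27724245, RefSeq LOC110257240) measured 4.39, 2.66, 18.3, 7.10, 1.82 and 2.14 RPKM in MSC 1 to 6, against 15.2, 12.5 and 14.01 RPKM in control 1 to 3. MSC 3 was above all controls and the other MSC libraries were below them (-1.44 ± 0.56 (SE), limma adjusted p = 0.920).

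Single libraries carried several rows over the level of 5 RPKM. ENSSSCG00000044067 (chromosome 9, 103306593 to 103309894, within the RefSeq span of NAPEPLD, a lipid enzyme gene) measured 1002 RPKM in MSC 6, against at most 1.38 RPKM in the other MSC libraries and at most 1.68 RPKM in the controls. The NAPEPLD row was at 5.29 RPKM in MSC 6, within its range of 4.59 to 9.03 RPKM over the MSC libraries. ENSSSCG00000042050 on chromosome 13, within the RefSeq span of the zinc finger gene ZNF385D, measured 212 RPKM in MSC 2 and 13.02 RPKM in the next library, MSC 6. In all, 6 rows had a highest library at least 4 times the next one, and 10 rows had a median under 5 RPKM. The fold changes of ENSSSCG00000044067 and ENSSSCG00000042050 were 1.63 ± 1.92 and 2.45 ± 1.31 (SE; limma adjusted p = 0.920 for both). Without MSC 6 the first was 0.082, and without MSC 2 the second was 1.51.

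At the other end, 4 rows varied less than 2-fold over the 9 libraries, whereas 23 varied more than 10-fold. ENSSSCG00000049610 (chromosome 2, RefSeq LOC100513397) was the steadiest, between 9.07 and 13.1 RPKM in MSC veins and between 9.17 and 10.8 RPKM in control veins. The PHF20 row (a chromatin reader gene) ran from 4.48 to 8.41 RPKM in MSC veins and from 7.12 to 7.87 RPKM in control veins. ENSSSCG00000051552, within the RefSeq span of the nucleic acid binding gene PURB, ran from 13.1 to 24.8 RPKM in MSC veins and from 21.9 to 24.9 RPKM in control veins. ENSSSCG00000044541, within the span of TIA1, an RNA-binding protein of stress granules, completed the 4.

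MSC 5 and MSC 6 were the 2 lowest libraries in 30 of the 71 rows (42.3%), against 24.1% of all genes tested and 25.1% of the other lncRNA rows. They were the 2 highest in 7 rows (9.86%), against 22.1% of all genes tested and 3.8% of the other lncRNA rows. The share with these libraries lowest differed between kinds of row. It was 10 of 13 rows that overlap a RefSeq lncRNA gene alone and hold no small RNA. For rows within RefSeq coding spans without a small RNA it was 14 of 36. For rows that overlap neither kind of RefSeq gene and hold no small RNA it was 5 of 10. It was 0 of 9 snoRNA-holding rows, most of which were highest in MSC 6, the library richest in small non-coding RNA. Rows of the same locus are not independent. Among the 10, ENSSSCG00000051290, ENSSSCG00000046277 and ENSSSCG00000041698 all overlap LOC106507157. The reads on all 71 rows made up 0.406% and 0.405% of MSC 5 and MSC 6, against 1.47% to 1.97% of the other MSC libraries and 0.926% to 2.39% of the controls. Most of this gap lay in ENSSSCG00000048856: on the other 70 rows the shares were 0.274% and 0.323% in MSC 5 and MSC 6, against 0.37% to 0.445% in the other MSC libraries and 0.272% to 0.528% in the controls. All of these are shares of total reads, which small non-coding RNA dilutes most in MSC 6 (53.3% of its reads) and control 2 (40.4%). They do not show that MSC 6 was low on the 70 rows outside small RNA. In MSC 6, ENSSSCG00000044067 alone held 44565 of the 144223 reads on the 71 rows.

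By kind, the median fold change was -0.76 over the 13 RefSeq lncRNA rows, of which 11 were negative, -0.65 over the 10 rows of neither kind, of which 8 were negative, and -0.13 over those 36 rows within coding spans, of which 22 were negative. Without MSC 5 and MSC 6 these medians were -0.18, -0.30 and -0.06. The contractile smooth muscle markers, of which 13 of 14 had positive fold changes and 2 an unadjusted p below 0.05, were highest in the same 2 libraries. Markers of B and plasma cells had negative fold changes in 9 of 10 genes, 8 with an unadjusted p below 0.05, and those of T and NK cells in 10 of 10, 3 with an unadjusted p below 0.05. Erythroid markers had positive fold changes in 4 of 4 genes tested, 3 with an unadjusted p below 0.05. Nerve and glia markers were negative in 5 of 7 genes tested, 2 with such a p. Positive fold changes were found in 6 of 10 fibroblast, 5 of 10 macrophage and 6 of 9 endothelial markers. In either direction, 3 fibroblast and 2 macrophage markers had such a p. Adipocyte and skeletal muscle markers were positive in 3 of 5 and 4 of 4 genes tested. Over all genes tested, 55.7% were positive, 44.3% negative, and 4.02% had such a p. The part of these cell types in the levels of the lncRNA rows was not tested.

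Of the 7 rows with MSC 5 and MSC 6 as the 2 highest libraries, 6 lay within coding spans and 1 held a snoRNA. The HDLBP row (the gene of the RNA-binding protein vigilin) measured 110.5 RPKM in MSC 5 and 38.4 RPKM in MSC 6, against 11.8 to 16.0 RPKM in the other MSC libraries and 9.71, 25.3 and 20.5 RPKM in control 1 to 3. The row within the span of S100A16, a calcium-binding protein gene, measured 51.2 RPKM in MSC 5 and 39.2 RPKM in MSC 6, against 12.4 to 18.8 RPKM in the other MSC libraries and 12.1, 7.20 and 13.3 RPKM in control 1 to 3. The CYS1 row (a gene of the primary cilium) measured 27.2 and 19.2 RPKM in MSC 5 and MSC 6, against 1.72 to 6.82 RPKM in the other MSC libraries and 3.71 to 3.92 RPKM in the controls.

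**Figure D5:**
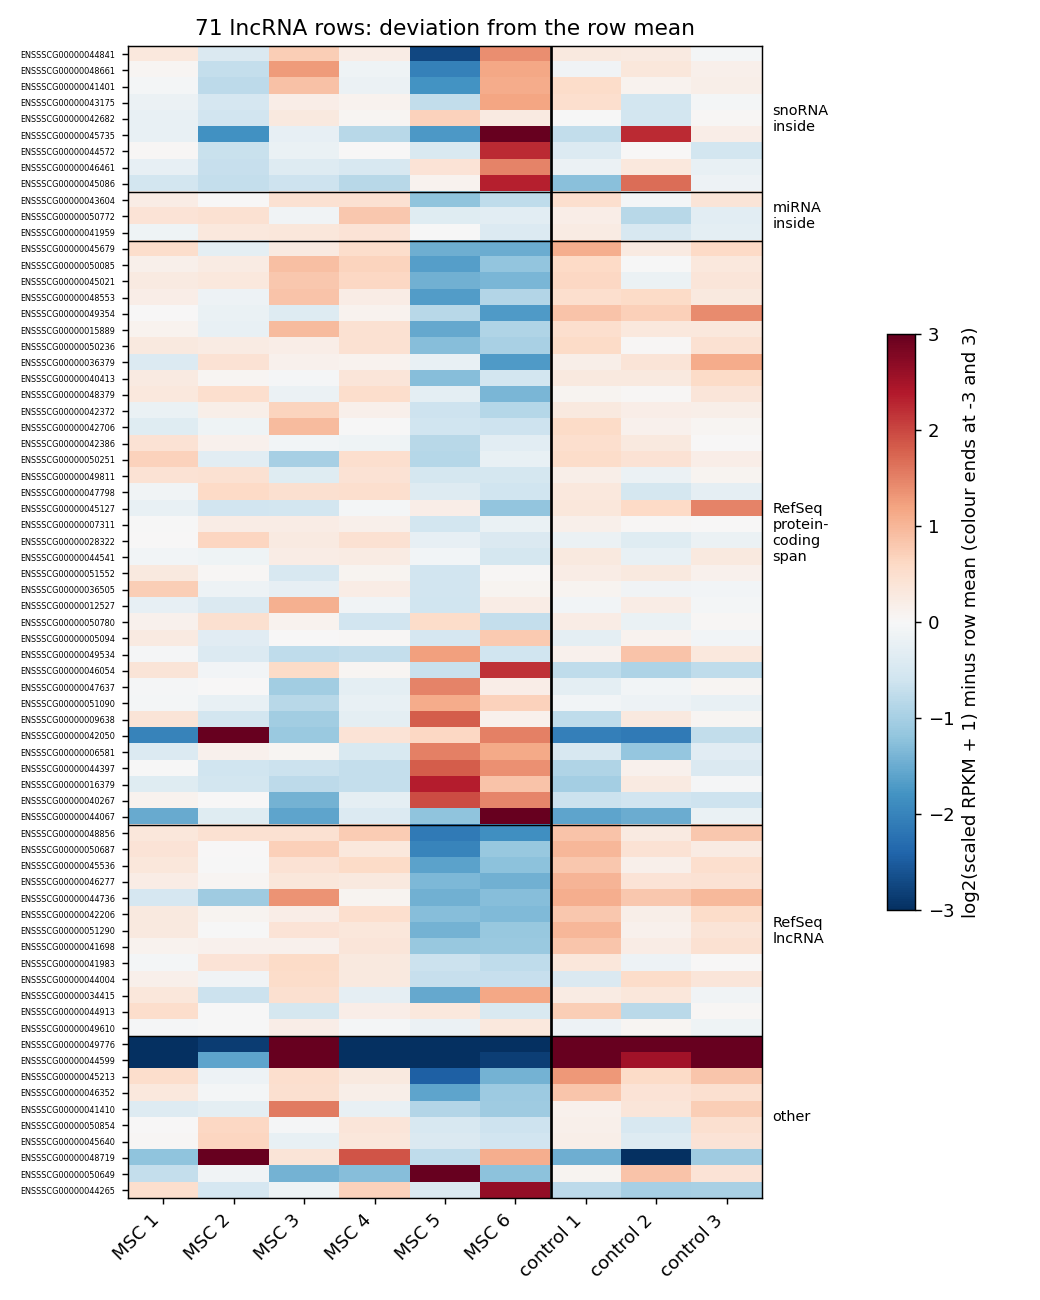
Deviation of each of the 71 lncRNA rows from its own mean over the 9 libraries, in log2(scaled RPKM + 1), with colours ending at -3 and 3; columns are MSC 1 to 6 and control 1 to 3, and rows are grouped by what they overlap. MSC 5 and MSC 6 are the 2 lowest libraries in 10 of 13 RefSeq lncRNA rows, and the X-linked pair is high in MSC 3 and the controls.

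Neighbouring coding genes were set beside the rows. Of 62 rows whose nearest listed coding gene was tested, 38 had a fold change of the same sign as that gene, and 16 of 27 did where the gap was at most 5000 bases. The pairs are not independent, since several genes were the neighbour of more than 1 row. KCNRG, near the floor, highest in MSC 2 and with a fold change of 0.08, was the neighbour of the 5 chromosome 11 rows, all negative. No expected share of same signs was computed. The difference between row and neighbour had a median size of 0.46 on the log2 scale. In 10 rows the nearest listed gene was also the RefSeq gene whose span the row shares, and 5 of these had the same sign, with a median difference of 0.56. PURB is an example of unequal levels: its listed coding row was at 3.49 ± 4.28 RPKM in MSC veins (SD, n = 6) and 1.02 ± 0.3004 RPKM in control veins (SD, n = 3), below the lncRNA row 561 bases from it.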

How the data were processed

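Total RNA (0.5 µg a library) of 6 MSC and 3 control veins was sequenced after TruSeq preparation, per the labels' protocols. The authors deposited RPKM per gene, per the file headers; aligner and counting tool are not given in the sources used here. Builds named, without a role, in the submitters' processing notes are susScr11 and mm10. Deposited RPKM times gene length plus 1, divided by the smallest nonzero value of each library, gave whole numbers (all values within 0.01). These were taken as reads, with that smallest value assumed to be 1 read, and used for scaling and for limma-voom.

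RPKM were scaled by trimmed mean of M-values factors (0.3 trimmed on M, 0.05 on A), and limma 3.58.1 in R 4.3.3 was fitted to log2(scaled RPKM + 1) with a trend, no covariate and Benjamini-Hochberg adjustment over 17884 genes that had 15 reads in all and, at the depth of the median library, 10 reads in 3 or more libraries. This scale understates changes of low genes. No count test was the main test. Neighbours came from the table's coordinates, and names and biotypes from RefSeq Sscrofa11.1 by overlap, strand disregarded. The method was tested on simulated data.

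The rows and lists were chosen with earlier results of these data known. Named by rule were the 8 rows of highest mean, the 8 of smallest p, the 4 of largest SD and those holding a microRNA (16 beside the non-overlapping rows added after their values were seen, 18 in all); other rows, the Y-linked genes and the neighbours quoted were also picked after their values were seen. The 3 lists of known lncRNA genes (37, 25 and 28 entries) matched 0 rows by symbol. Alternatives were other pseudocounts, scalings, filters and row definitions, limma-voom, lane or replicate number in the model, and libraries left out. Same-numbered MSC and control libraries deviated from their group means with correlations of 0.22, -0.52 and -0.14 across genes. With 3 controls, such correlations cannot decide whether the numbers pair the libraries, and the main fit used no pairing. No sequences are given. The coding neighbour of 1 row is not reported here.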

Additional observations from a re-analysis of the deposited data

Results flagged for a closer look

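Among 21 values tested for a library far from the other 5 MSC libraries, 5 stood apart by Dixon's criterion. For the rows the criterion used log2(scaled RPKM + 1), and for the median of the other lncRNA rows it used RPKM. The count therefore does not follow from the RPKM of the rows quoted below. Chance alone gives about 1 in 20 (1.05 here) for independent values that were not chosen by their spread. Several of these rows were named for their spread or p in these same data, and the X-linked pair shares a locus. The count therefore cannot be read as an excess over chance. MSC 3 measured 113 RPKM for ENSSSCG00000049776 (next 0.342) and 92.4 RPKM for ENSSSCG00000044599 (next 1.77), the X-linked pair; it was also the MSC library with 0 reads on EIF1AY and KDM5D. MSC 6 measured 267 RPKM for ENSSSCG00000044572 (next 57.1) and 1002 RPKM for ENSSSCG00000044067 (next 1.38). The median of the other lncRNA rows was 0.551 RPKM in MSC 2, against 0.0287 RPKM in the next MSC library and 0.00816 to 0.0284 RPKM in the controls; MSC 2 was also the shallowest library. The causes were not tested.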

How the results depend on the processing

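The count of genes past an adjusted p of 0.05, 0 with all libraries, was 7 on lanes 5 and 6 and 0 to 22 with a library left out (22 without control 1, 3 without MSC 3, 1 without MSC 2). Of the 71 rows, 0 to 2 passed with a library left out (2 without MSC 3, the X-linked pair). The count of rows without overlap between groups, 7, was 1 with deposited RPKM (1.71% of all genes tested), 3 relative to reads outside small non-coding RNA (3.48%), 12 on lanes 5 and 6 (19.1%), 14 without MSC 6 and control 2 (6.37%), 16 without control 2 and MSC 1 (6.97%), 11 without MSC 5 and MSC 6 (9.1%; added after the values were seen), and 7 to 15 with 1 library left out (4.28% to 8.83%). It was 17 of 207 rows at a mean of 2 RPKM, 2 of 27 at a mean of 10, 4 of 63 at a median of 5, 4 of 29 that overlap no listed gene and 4 of 29 outside RefSeq coding spans (also added later).

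The median fold change of the rows, -0.23, stayed negative in all 28 settings, at -0.34 to -0.14 with a library left out and -0.44 to -0.03 otherwise; with the replicate block it was -0.10 and no call changed. Scaling to reads outside small non-coding RNA shifted the median of all genes by -0.10, to -0.06, and the rows relative to it to -0.38. Over 506 values of single named genes, 486 kept direction and side, 2 passed the test and 18 reversed. ENSSSCG00000044913 was -0.16 with deposited RPKM, -0.21 outside small RNA, -0.12 without the filter, -0.31 without MSC 6 and control 2, -0.48 without control 2 and MSC 1, and -0.37 to 0.40 with a library left out. ENSSSCG00000044067 was -0.38 with lane in the model, -0.062 with the replicate block, -0.081 on lanes 5 and 6 and -0.15 without MSC 6 and control 2. ENSSSCG00000043604 was 0.043 with lane, 0.11 on lanes 5 and 6 and 0.013 without MSC 5 and MSC 6, and CHIC1 (ENSSSCG00000012416) was 0.10 with lane and 0.070 on lanes 5 and 6. The cause was not tested. Lane 7 held no control, and leaving out libraries also lowers the number of samples.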
